A study of Homo sapiens with 6 samples.

Results

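MUC1 and 9 other mucin genes were examined in DU-145-DR/tet-MUC1shRNA cells. DU-145 is a human prostate cancer line, the DR cells were selected from it for growth in docetaxel (DTX), and the tet-MUC1shRNA vector expresses a hairpin against MUC1 when doxycycline (DOX) is added. The 10 genes (MUC1, MUC4, MUC12, MUC13, MUC15, MUC16 and MUC20, which encode membrane mucins, and MUC2, MUC5AC and MUC5B, which encode secreted gel-forming mucins) were taken by symbol from 28008 genes with counts, and all 10 were present there. RNA-Seq was available for 3 DOX-negative cultures, which received 0.1% DMSO as vehicle, and for 3 DOX-positive cultures, which received DOX at 500 ng/ml. Treatment lasted 7 days by the legend that accompanies this RNA-Seq. The question was which mucins these cells transcribe and whether another mucin rises when MUC1 is silenced. All 6 libraries came from cells selected in docetaxel, transduced with the hairpin vector and selected in puromycin, although the treatment labels name resistance for the DOX-negative libraries and the hairpin for the DOX-positive ones only. The comparison therefore measures MUC1 silencing together with DOX itself, and no library of DOX-treated cells with a control hairpin was analysed here.

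Mucins are heavily O-glycosylated proteins whose serine-, threonine- and proline-rich stretches are built from tandem repeats. Membrane mucins form part of the glycocalyx on the apical face of epithelia, while gel-forming mucins are stored in goblet and gland cells and released as mucus. MUC1 is cleaved during synthesis into an N-terminal subunit that carries the repeats and a transmembrane C-terminal subunit, MUC1-C, whose cytoplasmic domain binds kinases, catenins and transcription factors. MUC16, known as the CA125 antigen, is an exceptionally large membrane mucin of ovarian and mesothelial surfaces. MUC20 is a small membrane mucin first described in kidney, where it binds the MET receptor.

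Repeat units are shown because tandem repeats, with a unit of its own in each gene, were found in several of these genes. Where copies are exact, a short read from 1 copy can match the others. In the longest GENCODE 29 transcript of MUC1 (4170 nucleotides, gene at chr1:155185824-155192916, GRCh38, minus strand), a repeat with a period of 60 bases filled 52.1% of the length, across exons 2 to 6, and the unit below occurred in 16 exact copies. The MUC20 transcript (2842 nucleotides, gene at chr3:195720882-195741123, plus strand) held a repeat of 57 bases in exon 1, with 10 exact copies of the unit, over 25.4% of the length. The MUC4 unit, of 48 bases, also had 10 exact copies, in exon 2. The MUC3A unit, of 51 bases and with no further exact copy, is from a mucin gene outside the 10 that fell together with MUC1. All 4 are written in the direction of transcription, in lower case throughout since no part is singled out.
MUC1 unit, chr1:155191821-155191880, minus strand: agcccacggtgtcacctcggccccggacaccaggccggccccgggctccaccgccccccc
MUC20 unit, chr3:195725148-195725204, plus strand: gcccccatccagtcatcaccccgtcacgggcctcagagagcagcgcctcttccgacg
MUC4 unit, chr3:195785395-195785442, minus strand: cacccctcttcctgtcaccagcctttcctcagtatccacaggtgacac
MUC3A unit, chr7:100958307-100958357, plus strand: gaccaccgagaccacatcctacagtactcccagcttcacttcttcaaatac
The MUC16 transcript, of 43816 nucleotides in 84 exons (gene at chr19:8848844-8981342, minus strand), had a longer period of 468 bases with no further exact copy of its unit. The scan found no repeat in MUC5B, MUC12, MUC13 or MUC15, where it required 4 copies at 75% identity. How reads that match several copies were counted is not given in the sources used here, so counts of genes with exact copies are uncertain to that extent.

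The libraries held between 15092691 and 23243713 counts, and 14292 genes passed the filter on low counts. In edgeR's quasi-likelihood test with Benjamini-Hochberg adjustment, 26.7% of the genes tested had an adjusted p under 0.05, with 13.0% higher and 13.7% lower in DOX-positive cells, and the median log2 fold change of all genes tested was -0.0034. These shares and this median are the background for every list of genes below. Levels are given as CPM, the read count scaled to a common library total with TMM factors, which do not correct for length. As a check of the line, KLK3, FOLH1 and HOXB13, markers of luminal prostate cells, had 0 counts in all 6 libraries, which allows up to 0.202 CPM in the smallest library. The epithelial markers KRT8, KRT18, KRT19, EPCAM and CDH1 were present in every library. Among 11 markers of other cell types only COL1A1 and CD68, a lysosomal protein gene that many tumor lines express, passed the filter. CD68 rose from 100 to 169 CPM with DOX (log2 fold change 0.75 ± 0.0722 SE, edgeR adjusted p 8.39e-08), whereas the leucocyte markers PTPRC and CD3E had at most 3 counts in any library.

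MUC1 was the most abundant of the 10 mucins in counts before DOX and was strongly lower after it. It had 387, 484 and 396 counts in DOX-negative replicates 1 to 3, and 75, 74 and 66 counts in DOX-positive replicates 1 to 3. The corresponding levels were 21.3, 24.7 and 19.7 CPM without DOX and 3.27, 3.86 and 4.43 CPM with DOX, so the groups were far apart and every DOX-positive library retained MUC1 reads. The mean was 21.9 ± 2.58 CPM without and 3.85 ± 0.584 CPM with DOX (SD for 3 libraries in each group). It fell with a log2 fold change of -2.52 ± 0.146 (SE, 95% confidence interval -2.83 to -2.22, edgeR adjusted p 4.47e-11). The mean level left was 17.6% of that in DOX-negative cells. Ranked from the lowest log2 fold change, MUC1 stood at number 8 of 14292 genes. In bulk RNA, less MUC1 RNA in every cell and loss of it from a share of the cells cannot be told apart.

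**Figure D1:**
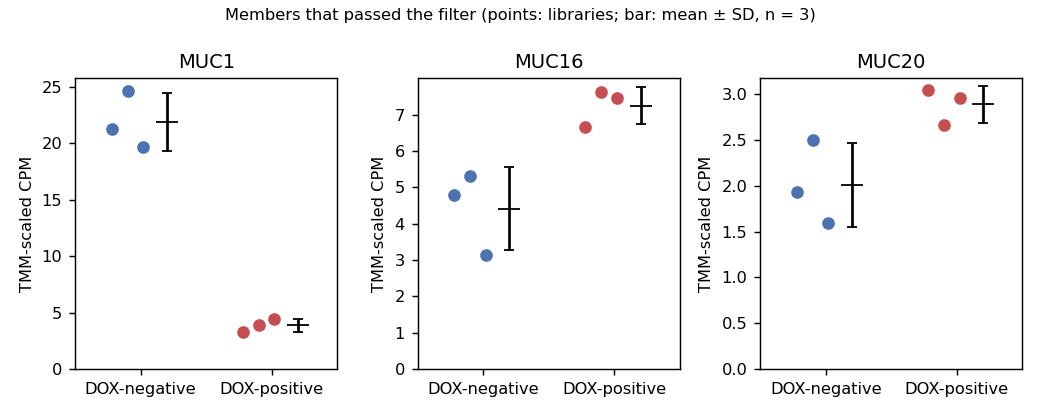
Levels of MUC1, MUC16 and MUC20 in TMM-scaled CPM (y axis, starting at 0) for DOX-negative (blue) and DOX-positive (red) libraries, with the mean ± SD of 3 libraries beside the points. MUC1 fell from 21.9 to 3.85 CPM, whereas all 3 DOX-positive libraries lay above all 3 DOX-negative libraries for MUC16 (4.41 and 7.25 CPM on average) and for MUC20 (2.01 and 2.89 CPM), of which only MUC16 passed the test.

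MUC16 was the only one of the other 9 mucins to pass the test, and it rose. It had 87, 104 and 63 counts without DOX and 153, 146 and 111 counts with DOX. Per library this was 4.79, 5.31 and 3.13 CPM against 6.66, 7.62 and 7.46 CPM. The groups did not overlap, and the lowest library of all was DOX-negative replicate 3. The mean rose from 4.41 ± 1.14 to 7.25 ± 0.513 CPM (SD for 3 libraries in each group), with a log2 fold change of 0.72 ± 0.189 (SE, 95% confidence interval 0.32 to 1.11, edgeR adjusted p 0.00707). Without DOX-negative replicate 3 the log2 fold change was 0.52 and the adjusted p 0.0452. Only MUC16 and MUC20 of the other 9 mucins passed the filter, so this was 1 call among 2 genes tested, beside 13.0% of all genes tested that were called higher, and so few genes allow no comparison of the shares. Of all genes tested, 321 of the 1861 higher calls had a log2 fold change at least that of MUC16.

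The MUC16 call rested on counts and was not made on the deposited TPM (a transcript abundance scaled to a fixed library total and corrected for length). MUC16 TPM was 0.139, 0.211 and 0.0669 without DOX and 0.135, 0.175 and 0.173 with DOX, so on this scale the groups overlapped. The log2 fold change of log2(TPM + 0.1) was 0.17 (limma adjusted p 0.766). Among deposited TPM, 5 short noncoding RNAs (RPPH1, RN7SK and the RN7SL genes 1 to 3) took between 34.4% and 62.8% of a DOX-negative library and between 60.5% and 64.4% of a DOX-positive library, and the median log2 fold change of all genes was -0.386 at that pseudocount. After TPM was rescaled without these 5 RNAs, a setting chosen after seeing the data, MUC16 had 0.262 ± 0.0732 and 0.422 ± 0.0355 rescaled TPM (SD, n = 3 each), and the log2 fold change of log2(rescaled TPM + 0.1) was 0.55 (limma adjusted p 0.264).

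MUC20 lay higher in the DOX-positive libraries, but its difference did not pass the test. It had 35, 49 and 32 counts without DOX and 70, 51 and 44 counts with DOX, or 1.93, 2.5 and 1.59 CPM against 3.05, 2.66 and 2.96 CPM. The highest DOX-negative and the lowest DOX-positive library differed by little, although the groups did not overlap. The means were 2.01 ± 0.462 and 2.89 ± 0.202 CPM (SD for 3 libraries in each group), and the log2 fold change was 0.53 ± 0.255 (SE, 95% confidence interval -0.00 to 1.05, edgeR adjusted p 0.135). The interval reaches from no difference to a larger rise than that estimated for MUC16. All 3 mucins tested had groups that did not overlap in CPM, as did 39.8% of all genes tested. In GENCODE 29 an exon of MUC20 overlaps MUC20-OT1 on the same strand, and the pseudogene MUC20P1 resembles it, so reads of MUC20 are uncertain.

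The other 7 mucins were at or near the floor, and none had more than 5 counts in any library. MUC4, a membrane mucin that binds ERBB2, had 4, 4 and 4 counts without DOX and 5, 2 and 5 with DOX. MUC12, an intestinal membrane mucin, had 4, 0 and 2 counts without DOX and 4, 2 and 2 with DOX. A difference in either gene was not detectable at these counts.

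MUC13, a membrane mucin of the gut, had 0, 2 and 0 counts without DOX and 0, 0 and 1 with DOX. MUC15 had 0, 0 and 2 counts without DOX and 0 in all 3 DOX-positive libraries. Both lay under the floor of 3 counts that a count of 0 allows, which corresponds to between 0.131 and 0.202 CPM depending on the library.

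The secreted mucins were as low as MUC13 and MUC15. MUC2, the main gel-forming mucin of the intestine, had 2, 0 and 0 counts without DOX and 0, 1 and 0 with DOX. MUC5AC, of stomach and airway surface, had 1, 0 and 1 counts without DOX and 0 in all DOX-positive libraries. MUC5B, of salivary and airway glands, had 0 counts in all 6 libraries. Over the 7 genes, DOX-negative cells had 26 counts and DOX-positive cells 22 counts in sum, and 0 of the 6 with any count passed edgeR's test without a filter (adjusted p from 0.495 to 0.995). With DOX, no library had more than 1 count of MUC2, MUC5AC or MUC5B, so no rise of these above the floor was seen, while a difference under the floor was not detectable at this depth.

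**Figure D2:**
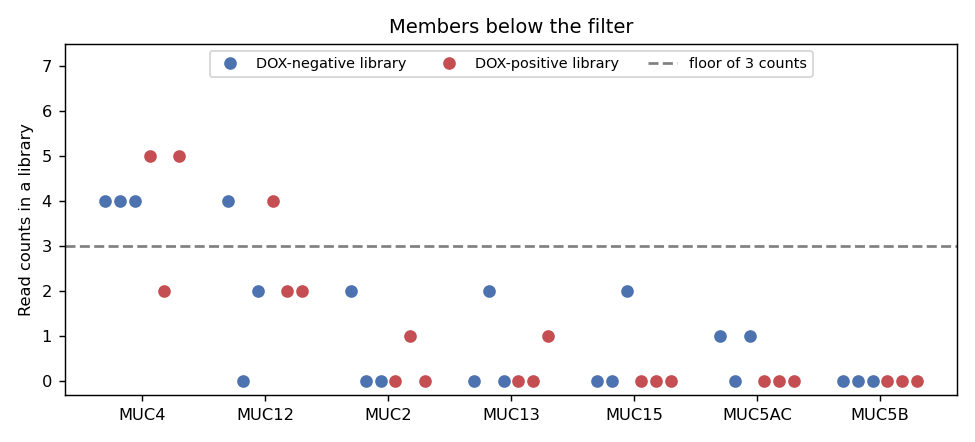
Read counts per library (y axis) of the 7 mucins that did not pass the filter, with 3 DOX-negative (blue) and 3 DOX-positive (red) libraries for each gene and the floor of 3 counts as a dashed line. Only MUC4 and MUC12 lay above the floor in any library, MUC4 at up to 5 counts and MUC12 at up to 4, and MUC5B was at 0 throughout.

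The makeup of mucin reads was changed by DOX. MUC1 supplied 74.4%, 75.3% and 79.2% of the counts of the 10 genes in DOX-negative replicates 1 to 3, and 24.4%, 26.8% and 28.8% in DOX-positive replicates 1 to 3. MUC16 and MUC20 together supplied between 91.3% and 97.5% of what was not MUC1. The other 9 genes summed to 6.87 ± 1.53 CPM before and 10.5 ± 0.424 CPM after DOX (SD, n = 3 each). Their rise of 3.66 CPM (SE 0.915) equalled 20.3% of the drop of MUC1 in CPM, and the sum of all 10 went from 28.8 ± 4.0 to 14.4 ± 1.01 CPM. CPM does not correct for length, and MUC16 has the longest transcript of the 10, so this share is one of reads and not of transcripts. In deposited TPM the sum of the other 9 genes did not rise, at 0.463 ± 0.234 without and 0.462 ± 0.047 with DOX, and the ratio of the means was 0.996 against 1.53 in CPM. In TPM rescaled without the 5 short noncoding RNAs, mean MUC1 went from 36.4 without DOX to 6.29 with DOX. On that scale MUC16 went from 0.262 to 0.422 and MUC20 from 0.52 to 0.733, which is small beside the drop of MUC1. No test was made on these sums.

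**Figure D3:**
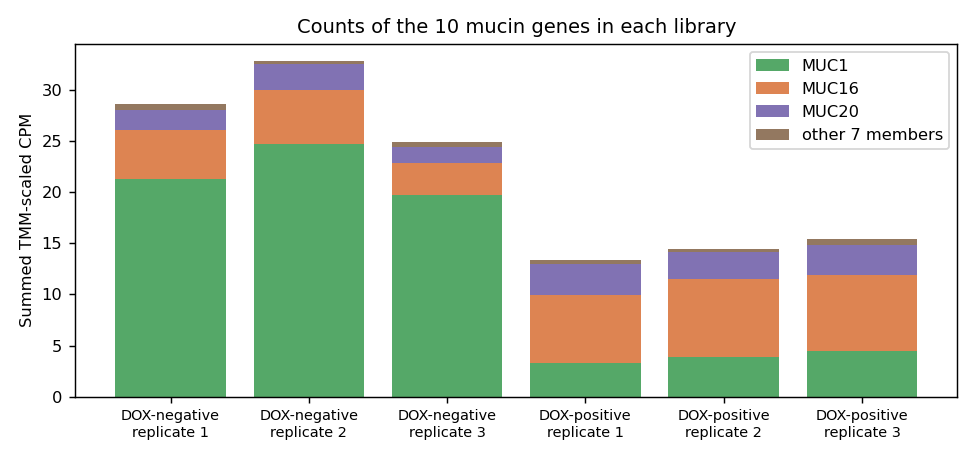
Stacked TMM-scaled CPM (y axis, starting at 0) of MUC1, MUC16, MUC20 and the other 7 mucins in each of the 6 libraries. MUC1 was the largest part of each DOX-negative bar, MUC16 was the largest part of each DOX-positive bar, and the bars of the DOX-positive libraries were lower in total.

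Since the genes differ in length, their order was also taken per length. By deposited TPM, MUC1 led in both groups, at 18.9 ± 7.95 TPM without DOX and 2.41 ± 0.511 TPM with DOX (SD, n = 3 each). MUC20 came next at 0.275 ± 0.145 and 0.279 ± 0.0172 TPM, and MUC16 followed at 0.139 ± 0.0718 and 0.161 ± 0.0223 TPM. MUC1 was between 125 and 176 times MUC16 in TPM without DOX and between 13.8 and 16.7 times with DOX, with no overlap of these ranges. The gap of MUC20 to MUC16, between 1.53 and 2.22 times over the 6 libraries, was within the spread between DOX-negative libraries but held within each library. Below MUC16, no mean exceeded 0.0226 TPM, and neighbours in this order did not differ beyond their spread.

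The lead of MUC1 with DOX depended on the length used. Counts divided by TPM give the relative lengths in the authors' table, and by these MUC20 was between 6.41 and 6.42 times as long as MUC1, whereas its longest GENCODE 29 transcript is 0.682 times as long. MUC16 was between 28.0 and 28.1 times as long as MUC1 by the former and 10.5 times by the latter. The ratios of MUC1 to MUC16 in TPM given above therefore also depend on the length used. Per kilobase of longest transcript, in a scale chosen after seeing the data, MUC1 had 5.25 ± 0.618 CPM without DOX, against 0.706 ± 0.163 for MUC20 and 0.101 ± 0.026 for MUC16. With DOX the values were 0.924 ± 0.14 for MUC1, 1.02 ± 0.0709 for MUC20 and 0.165 ± 0.0117 for MUC16 (SD, n = 3 each). MUC1 and MUC20 then differed by less than the spread between libraries.

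The mucin family outside the 10 genes was described from a list of 13. Of these, 5 passed the filter, 0 were higher and 2 were lower, with a median log2 fold change of -0.077 against -0.0034 for all genes tested. For higher, the count was also 0 at an unadjusted p under 0.05 in edgeR and 0 in DESeq2. MUC3A, an intestinal membrane mucin at chr7:100949555-100968346, had 85, 87 and 104 counts without DOX and 31, 41 and 25 with DOX. Its groups did not overlap, and it fell from 4.76 to 1.72 CPM (log2 fold change -1.47 ± 0.235 SE, edgeR adjusted p 6.96e-05). Annotations differ in how they divide MUC3A from its close copy MUC3B, so its reads are uncertain. MCAM, an adhesion molecule also named MUC18 that is not a mucin in structure, had 538, 558 and 602 counts without DOX and 411, 322 and 245 with DOX (log2 fold change -0.78 ± 0.0959 SE, edgeR adjusted p 2.7e-06).

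The sialomucin CD164 was the most abundant gene of this list, at 291 CPM without DOX and 290 with DOX, with with log2 fold change -0.00 ± 0.0652 (SE, edgeR adjusted p 0.97). OVGP1, the oviduct mucin, had 3.31 and 3.27 CPM, and MUCL3, listed under its older symbol DPCR1, had 1.43 and 1.38 CPM. Neither passed the test. The 8 untested genes, which include MUC6, MUC7, MUC17, MUC19, MUC21 and MUC22, had at most 5 counts in a library. MUC19 had 0, 0 and 1 counts without DOX and 3, 3 and 5 with DOX.

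Proteases that cut or shed membrane mucins moved in both directions. Of 14 listed, 13 were tested, 4 were higher and 2 were lower (46.2% called, median log2 fold change 0.069). MMP14, a membrane-type matrix metalloprotease known to shed MUC1, rose from 34.6 to 68.2 CPM (log2 fold change 0.98 ± 0.0776 SE, edgeR adjusted p 4.95e-09). The transmembrane serine protease gene ST14 rose by 0.69 and the gamma-secretase subunit genes APH1B and NCSTN rose by 0.46 and 0.28 on the log2 scale. ADAM10 changed by -0.19 and BACE1 by -0.25, both lower. ADAM17, the sheddase best known for MUC1, had a log2 fold change of -0.12 (edgeR adjusted p 0.224), and ADAM9, the most abundant at 734 CPM without DOX, had one of 0.07 (adjusted p 0.437).

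Genes whose products bind the MUC1 cytoplasmic domain or ectodomain also divided into higher and lower ones. Of 27 listed, 25 were tested, 8 were higher and 6 were lower (56.0% called, median 0.078). The kinase gene SRC changed by -0.49, the receptor gene ERBB2 by -0.38 and the chaperone genes HSP90AA1 and HSPA8 by -0.36 and -0.32. JUP, which encodes gamma-catenin, rose by 0.40, and the kinase genes ABL1 and LYN rose by 0.36 and 0.29. LGALS3, which encodes the MUC1 ligand galectin-3, rose from 87.6 to 107 CPM (log2 fold change 0.30 ± 0.087 SE, edgeR adjusted p 0.0146). APC rose by 0.27. CTNNB1, which encodes beta-catenin, had a log2 fold change of -0.16 that did not pass the test (edgeR adjusted p 0.0682).

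The promoter of MUC1 is shown beside the transcription factors known to act on it. In RefSeq's GRCh38.p14 table, 250 bases before to 50 after a start were given for 6 of the 10 genes. Both strands were searched for the TATA box as TATAAA, present in 12% of 27305 promoters, the GC box as GGGCGG, present in 44.6%, the E-box as CACCTG, present in 20.6%, the STAT-like pattern TTCNNNGAA, present in 7.88%, and the CAAT box as CCAAT, present in 35.7%. The MUC1 window held 1 TATAAA, 4 GGGCGG (3 of which overlap each other) and 2 CACCTG, all in capitals.
MUC1 promoter, chr1:155192866-155193165, minus strand: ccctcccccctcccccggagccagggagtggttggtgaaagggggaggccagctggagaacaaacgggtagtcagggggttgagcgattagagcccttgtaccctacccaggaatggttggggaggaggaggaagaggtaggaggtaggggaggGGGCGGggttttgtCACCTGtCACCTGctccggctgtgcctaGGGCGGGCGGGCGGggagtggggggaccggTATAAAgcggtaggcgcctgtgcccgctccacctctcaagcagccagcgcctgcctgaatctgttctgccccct
The MUC16 window held 1 GGGCGG, 1 CACCTG and 1 CCAAT. Of 12 factors listed for the MUC1 promoter, 11 were tested, 2 were higher and 2 were lower (36.4% called, median 0.058). RELA, an NF-kappaB subunit gene, changed by -0.20 and was lower. ETV4 rose by 0.44 and STAT3 by 0.19. SP1, which binds GC boxes, had a log2 fold change of -0.04 (edgeR adjusted p 0.694).

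The regulators and accessory genes of secreted mucins were divided. Regulators such as FOXA1 and XBP1 were expressed, at 122 and 69.7 CPM without DOX, while several accessory genes had no counts. Of 23 listed, 9 were tested, 3 were higher and 2 were lower (55.6% called, median 0.236). AGR2, which encodes a disulfide isomerase required for MUC2 assembly, and the trefoil factor genes TFF1, TFF2 and TFF3 had 0 counts in all libraries. The transcription factor genes KLF4, FOXA1 and XBP1 rose by 0.51, 0.24 and 0.20 on the log2 scale. CREB3L1 had 28, 13 and 30 counts without DOX and 7, 9 and 4 with DOX, with log2 fold change -1.79 ± 0.464 (SE, edgeR adjusted p 0.0061), and FOXA3 changed by -1.49. SPDEF, the factor of goblet cells, had between 7 and 26 counts and did not pass the test (edgeR adjusted p 0.19). FOXA2, which restrains mucus genes in the airway, had a log2 fold change of 0.77 (edgeR adjusted p 0.131).

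Among 19 genes of the apical membrane and glycocalyx, 15 were tested, 5 were higher and 3 were lower (53.3% called, median 0.049). CEACAM1, an adhesion molecule of the apical glycocalyx, had 10, 4 and 9 counts without DOX and 17, 41 and 18 with DOX, with log2 fold change 1.75 ± 0.479 (SE, edgeR adjusted p 0.00922). The apical polarity gene CRB3 rose by 0.82. The linkers of membrane proteins to actin were divided, with EZR higher by 0.40 and RDX and MSN at -0.26 each, both lower. SLC9A3R1, the older symbol of NHERF1 and a scaffold of ezrin, changed by -0.24 (edgeR adjusted p 0.0489). The hyaluronan receptor gene CD44 rose by 0.27. The syndecan gene SDC4, at 422 CPM without DOX, had a log2 fold change of 0.08 (adjusted p 0.428).

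Epithelial markers moved beside these genes. Of 7, all 7 were tested, 5 were higher and 0 were lower, with a median log2 fold change of 0.839. For lower, the count was also 0 at an unadjusted p under 0.05 in edgeR and 0 in DESeq2. The share called was 71.4%, beside 26.7% of all genes tested. CLDN4 and CLDN7 did not pass the test (log2 fold change 0.14 and 0.09). EPCAM rose from 30.5 to 82.0 CPM (log2 fold change 1.43 ± 0.0775 SE, edgeR adjusted p 1.68e-11), KRT19 by 1.00 and CDH1 by 0.92. CD68 rose as well, as given above. The part of these genes in the rise of MUC16 was not tested.

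**Figure D4:**
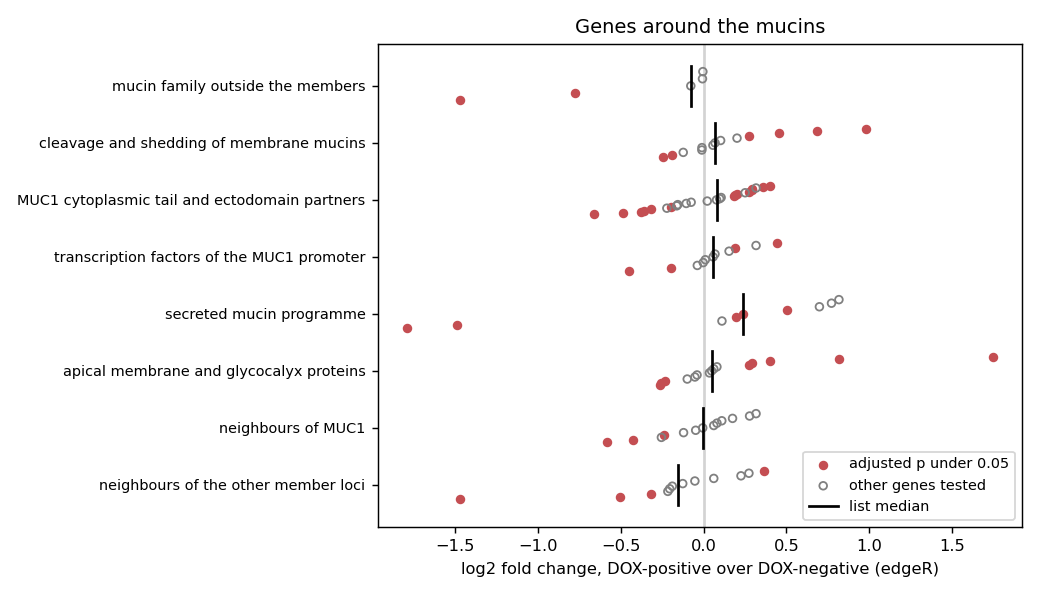
Log2 fold changes (x axis, DOX-positive over DOX-negative, edgeR) of the tested genes in 8 groups around the mucins, with genes at an adjusted p under 0.05 in red, other tested genes as open circles and the median of each group as a black line. Medians lay between -0.158 and 0.236, while MUC3A, CREB3L1, FOXA3 and CEACAM1 lay furthest from 0.

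Genes beside the MUC1 locus showed much smaller differences than MUC1. Of 15 protein-coding genes within 100 kb of MUC1 in RefSeq's GRCh38.p14 table, 13 were tested, 0 were higher and 3 were lower (23.1% called, median -0.005). For higher, 3 had an unadjusted p under 0.05 in edgeR and 0 were called in DESeq2. TRIM46 and HCN3 changed by -0.58 and -0.43 on the log2 scale. SCAMP3 had a log2 fold change of 0.06 (edgeR adjusted p 0.555).

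Around the other 9 loci 24 such genes were found, of which 12 were tested, 1 was higher and 3 were lower (33.3% called, median -0.158). MUC3A and MUC17 lie beside MUC12 on chromosome 7, and MUC6 lies beside MUC2 on chromosome 11. MUC3A is 1 of the 3 lower genes, and its fall is the same result as that given with the mucin family. TRIM56 and TRIP6, also near MUC12, changed by -0.50 and -0.32. ITGB5, near MUC13, rose by 0.37. ZNF317 and ZNF558, near MUC16, had log2 fold changes of -0.05 and -0.22, and TNK2, near MUC4 and MUC20, had one of 0.06. None of these 3 passed the test.

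The heptamer ATCAGTA was looked for in these transcripts because an earlier scan of the same fold changes had singled it out, so its presence is a description of these genes and supports nothing about them. It occurs in 15.4% of the longest transcripts of 19669 protein-coding genes, and in 18.1% of the 12393 of these that were tested. MUC1 holds it 1 time, in coding sequence of exon 8 of 11, downstream of the repeats, and the site is printed with the heptamer in capitals.
MUC1 site, chr1:155187765-155187785, minus strand: cagttcaATCAGTAtaaaacg
MUC3A, which fell, holds 2 copies, MUC16, which rose, holds 4 copies, and MUC20 holds 0. Their transcripts are 11226, 43816 and 2842 nucleotides long, and copies were not corrected for length, so these numbers are not comparable between genes. Whether the hairpin matches this site was not tested, since its sequence was not used here.

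Genes whose log2 CPM followed a mucin most closely over the 6 libraries were sought among 12362 genes with an average log2 CPM of at least 1. For MUC1 these were PRKCA, MATN2 and DDX60L (Pearson r 0.9994, 0.9987 and 0.9972), which had log2 fold changes of -0.71, -1.21 and -0.56. For MUC16 they included SORL1 and COL13A1 (r 0.9976 and 0.994), with log2 fold changes of 0.14 and 0.50. SORL1 did not pass the test (edgeR adjusted p 0.134). For MUC20 they were MST1R, TMEM217 and TCF25 (r 0.9941, 0.993 and 0.9928). These genes were picked for the highest r of 12362 over 6 points, so r was high by selection and shows no link. The 6 points share the treatment and the libraries' depth and makeup.

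Across settings, MUC1 stayed strongly lower, MUC16 changed its call on the TPM scales and MUC20 was not called in any.

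**Figure D5:**
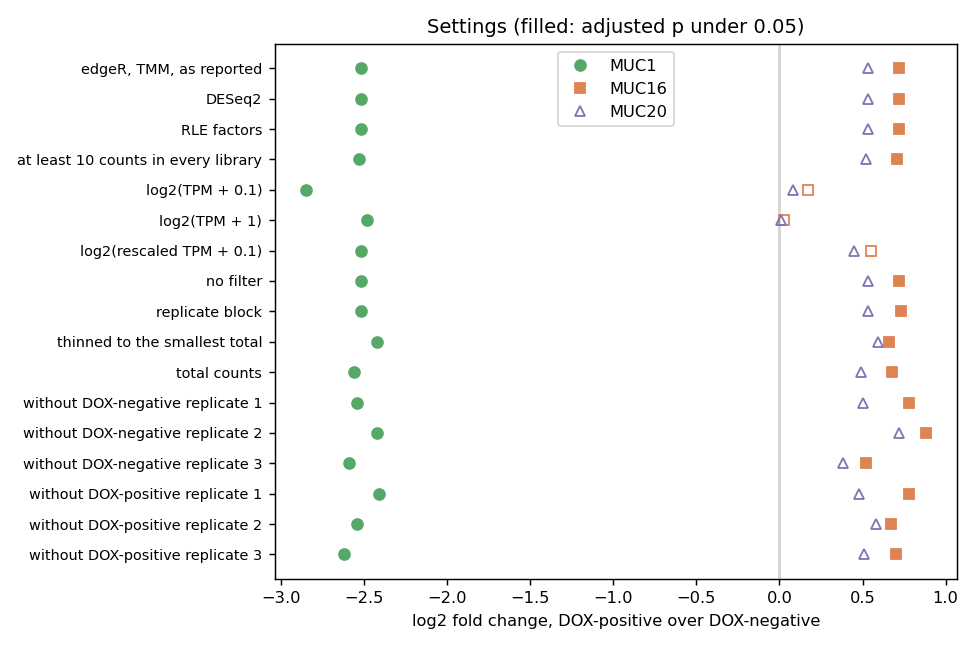
Log2 fold changes (x axis, DOX-positive over DOX-negative) of MUC1, MUC16 and MUC20 under the reported test and 16 other settings (y axis), with filled symbols where the adjusted p was under 0.05. MUC1 lay between -2.85 and -2.41 in the other settings, MUC16 between 0.03 and 0.88 and MUC20 between 0.01 and 0.72, with MUC16 open in the 3 settings on TPM.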

How the data were processed

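RNA-Seq was performed on total RNA of triplicate cultures with TruSeq Stranded mRNA libraries. The authors deposited whole-number read counts of 28008 genes and TPM values of 25546 genes. The submitters' processing notes name STAR, DESeq2 and GRCh38 (hg38). Versions, the counting step, its strand setting and the annotation are not given in the sources used here. Samples were grouped by DOX state in their titles. That DOX-negative cells carry the hairpin is taken from the study's description. Nothing says whether cultures were set up independently, so p-values measure the spread between these libraries, which may be technical.

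Counts were analyzed in R 4.3.3 with edgeR 4.0.16 (filterByExpr, TMM, glmQLFit and glmQLFTest, two-sided, group as the only term), with Benjamini-Hochberg adjustment over 14292 genes and 0.05 as the threshold. Alternatives used DESeq2 1.42.0 and limma 3.58.1. Totals ranged from 15092691 to 23243713 counts, so that 3 counts, taken as the floor, were 0.131 to 0.202 CPM. Reads carry no stated molecular identifiers, so floors cover counting error only. Within each group the libraries differed beyond sampling noise, so each was 1 replicate. The edgeR test was checked on simulated counts. Symbols were matched to RefSeq's GRCh38.p14 table and its synonyms, and sequences to GENCODE 29 and RefSeq.

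Members and lists were chosen with earlier results of these data known. Text names all 10 mucins, family genes with at least 10 counts in a library, the called genes of each list (at most 5 in each direction by size of change), up to 3 abundant genes that were not called, and the 3 genes most like each tested mucin. Genes below the filter other than the 10 mucins (MUC19, MUC6, MUC17, AGR2 and the like), and SPDEF, ZNF558 and TNK2, were named after their values were seen. Not every gene covered by this rule is reported here.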

Additional observations from a re-analysis of the deposited data

How the results depend on the processing

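MUC1 kept its direction and its call in all 16 alternatives, which covered DESeq2, thinned counts, RLE factors or plain totals in edgeR, the omission of the filter or a minimum of 10 counts per library, a replicate block, limma on log2(TPM + 1), log2(TPM + 0.1) and log2(rescaled TPM + 0.1), and each library left out in turn. Leaving out 1 library gave between -2.62 and -2.41. MUC16 was called in 13 of the 16 and not on log2(TPM + 1) (0.03), log2(TPM + 0.1) (0.17) or log2(rescaled TPM + 0.1) (0.55), so the number of the other 9 mucins called went from 1 to 0 there. With libraries left out it ranged from 0.52 to 0.88. MUC20 was not called in any. MUC3A and MCAM kept their calls in all 16.

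On log2(TPM + 1) and log2(TPM + 0.1), which shift the median of all genes by -0.321 and -0.386, the calls went to 0 for cleavage and shedding, promoter factors, apical proteins and neighbours of MUC1, to 1 for MUC1 partners and neighbours of the other loci, and to 2 for the secreted mucin programme. At least 10 counts in every library left 3 secreted programme calls, where fewer genes were tested. Calls over all genes were 3816 as reported, 408 and 443 on these TPM scales, and 48.8% of calls were higher as reported against 39.3% with total counts, 7.11% on log2(TPM + 0.1) and 6.77% on log2(TPM + 1). Leaving out 1 library gave 1 call for the other mucins and 2 for the family in each case, 4 to 7 for cleavage and shedding, 9 to 13 for MUC1 partners (9 without DOX-positive replicate 3), 2 to 3 for promoter factors (2 without DOX-negative replicate 1 or DOX-positive replicate 3), 3 to 5 for the secreted programme (3 without DOX-negative replicate 1 or 2 or DOX-positive replicate 1 or 3), 5 to 8 for apical proteins (5 without DOX-positive replicate 2), 1 to 3 for neighbours of MUC1 (1 without DOX-negative replicate 1) and 2 to 6 for neighbours of the other loci (2 without DOX-negative replicate 2). The sum of the 9 mucins other than MUC1 rose 1.53 times in CPM, 0.996 times in deposited TPM and 1.38 times in rescaled TPM. MUC1 had rank 1 with DOX by TPM and rank 2 per kilobase of longest transcript. The cause was not tested, apart from the composition of TPM given above.

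The replicate numbers did not pair the libraries: deviations from group means correlated at -0.0189, -0.095 and -0.0273 for numbers 1, 2 and 3. With a replicate block MUC1 had a log2 fold change of -2.52 and MUC16 one of 0.73, and of the list counts only that of promoter factors moved by over 1.5 times, to 2. All genes called were 3158.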
